A study of Mus musculus with 18 samples.

Results

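Levels of 10 genes of the unfolded protein response and the integrated stress response were followed in mouse liver across all 6 groups of the study: Hspa5, Dnajb9, Herpud1, Xbp1, Atf4, Ddit3, Atf3, Trib3, Chac1 and Asns. The 10 were chosen by name, by matching the Ensembl identifiers of the count tables to gene symbols, and make up 10 of the 55536 identifiers counted and 10 of the 14835 genes tested. All 10 passed the filter on low counts. Each group held livers of 3 female C57BL/6 mice, and each library was 1 mouse. The genotypes were AhRΔHep (called dHep, with the aryl hydrocarbon receptor AHR deleted in hepatocytes), AhRΔHSC (dHSC, deleted in hepatic stellate cells) and AhR fl/fl (WT, whose floxed gene is intact). Mice of each genotype received TCDD, a dioxin that activates AHR, at 100 µg/kg by gavage every 4 days, or the peanut oil vehicle, and livers were taken at day 92. The groups are therefore dHep TCDD, dHep vehicle, dHSC TCDD, dHSC vehicle, WT TCDD and WT vehicle. Replicate numbers are the mouse numbers of the labels. The Cre drivers and the deleted part of the receptor gene are not given in the sources used here. Ahr itself had 61.6 ± 32.9 CPM in dHep TCDD and 38.0 ± 16.3 CPM in dHep vehicle, against 51.5 ± 6.21 CPM in WT TCDD and 51.5 ± 18.7 CPM in WT vehicle (SD, n = 3 each), and since a partial deletion can leave most of a transcript countable, the level says nothing for or against the labels.

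The unfolded protein response starts when unfolded proteins gather in the endoplasmic reticulum (ER). The sensors IRE1, ATF6 and PERK then raise chaperones and degradation factors, through the spliced form of XBP1 and the cleaved form of ATF6, and slow translation through phosphorylation of eIF2alpha. Other kinases phosphorylate eIF2alpha when amino acids, haem or double-stranded RNA signal trouble, and all of them favour translation of ATF4, which switches on genes of amino acid synthesis and transport. Several steps are set after transcription (ATF4 translation, XBP1 splicing, ATF6 cleavage), and counts per gene do not measure them. In bulk liver, fewer cells of a type and less RNA per cell cannot be told apart.

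The promoters of these genes were searched for the letters bound by the factors of the pathway. RefSeq starts on GRCm38.p6 were found for 10 of 10 genes, and the stretch of 250 bases before to 50 bases after the start was searched on both strands. The letters TGATGNAA, the core of the element bound by ATF4 with C/EBP partners, occurred in 5 of the 10 (Asns, Atf3, Chac1, Herpud1 and Trib3) and in 3.97% of 32851 promoters. Among genes of related lists, they occurred in 5 of 8 cytosolic aminoacyl-tRNA synthetases. They also occurred in 3 of 14 ATF4 targets in amino acid metabolism and transport and in 3 of 15 other ATF4 and CHOP response genes. The ER stress element (CCAAT, 9 bases of any kind, CCACG), read by ATF6 with NF-Y, occurred in Hspa5 and in 0.119% of promoters, and its variant (ATTGG, 1 base of any kind, CCACG) occurred in Herpud1 and in 0.0365%. The ER stress element itself was also in 6 of 16 ER chaperones and folding enzymes and in 2 of 14 genes of ER-associated degradation and export. The letters TGACGTG, a core read by XBP1 and ATF6, occurred in Hspa5 and in 2.01%. None of these matches overlapped another in these genes. The AHR core GCGTG, which is short, occurred in 8 of the 10, in 32.4% of promoters and in 35.2% of genes. Like the ATF4 and ER stress elements, it was not particular to these 10. In the related lists searched the AHR core ran from 42.9% of genes (ER-associated degradation and export) to 87.5% (cytosolic aminoacyl-tRNA synthetases), with 75% of ER chaperones and folding enzymes. The promoters of Asns, Atf3, Chac1, Herpud1 and Hspa5, shown because they carry these elements upstream of the start, are given from 200 bases before the start up to the start, 5′ to 3′ on the gene's strand, with the matched letters in capitals and the AHR core left in lower case.
Asns promoter, chr6:7693210-7693409, minus strand: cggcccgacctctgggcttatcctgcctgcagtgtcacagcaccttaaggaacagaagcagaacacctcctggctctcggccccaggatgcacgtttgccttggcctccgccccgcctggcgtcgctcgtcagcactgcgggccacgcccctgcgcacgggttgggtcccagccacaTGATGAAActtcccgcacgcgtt
Atf3 promoter, chr1:191183334-191183533, minus strand: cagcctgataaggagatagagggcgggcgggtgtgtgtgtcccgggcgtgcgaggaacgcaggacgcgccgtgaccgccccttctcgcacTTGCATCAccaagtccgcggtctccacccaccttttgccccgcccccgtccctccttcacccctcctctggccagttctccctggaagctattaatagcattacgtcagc
Chac1 promoter, chr2:119351042-119351241, plus strand: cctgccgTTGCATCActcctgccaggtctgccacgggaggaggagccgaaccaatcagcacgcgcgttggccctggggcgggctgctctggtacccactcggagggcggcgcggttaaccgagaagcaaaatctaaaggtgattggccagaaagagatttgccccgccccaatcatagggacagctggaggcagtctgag
Herpud1 promoter, chr8:94386229-94386428, plus strand: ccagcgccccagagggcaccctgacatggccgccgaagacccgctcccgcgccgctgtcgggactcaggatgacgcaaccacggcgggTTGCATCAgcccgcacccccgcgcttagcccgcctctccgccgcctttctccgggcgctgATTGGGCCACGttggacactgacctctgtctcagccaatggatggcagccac
Hspa5 promoter, chr2:34771890-34772089, plus strand: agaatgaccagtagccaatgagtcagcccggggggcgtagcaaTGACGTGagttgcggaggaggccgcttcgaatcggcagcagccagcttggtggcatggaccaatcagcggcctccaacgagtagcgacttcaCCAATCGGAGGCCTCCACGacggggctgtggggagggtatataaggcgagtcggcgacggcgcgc
In Asns the match TGATGAAA began 23 bases before the start. The reverse-strand match TTGCATCA began 110 bases before the start in Atf3, 193 in Chac1 and 112 in Herpud1, where ATTGGGCCACG followed at 52. In Hspa5 TGACGTG began at 157 and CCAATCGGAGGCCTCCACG at 65 bases before the start. The match of Trib3, TTACATCA, began at position 15 of the stretch after the start. A match describes letters and shows no binding.

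Levels spanned a wide range among the 10 genes. On the scale of CPM per kilobase of exon, averaged over 18 libraries, the order ran from Hspa5 (139), Herpud1 (85.6), Xbp1 (66.4), Atf4 (57.0) and Dnajb9 (24.6) to Trib3 (7.11), Ddit3 (4.16), Chac1 (2.63), Atf3 (2.38) and Asns (1.02). The abundant genes were thus the ER folding and degradation genes with Xbp1 and Atf4, and the scarce ones were targets of ATF4 and CHOP and the stress factors Atf3 and Ddit3. Total counts per library ran from 12706490 to 27240877. Asns rested on 700 counts over the 3 WT TCDD libraries and on 36 to 126 in each other group, so its lower levels carry counting error as well as the spread between mice. A set of 5 libraries stood apart from the other 13, with over 2% of counts outside protein-coding genes: dHep TCDD replicate 16, dHep vehicle replicates 9 and 15, dHSC TCDD replicate 18 and dHSC vehicle replicate 17. No WT library was among them, but WT TCDD replicate 8 came nearest, with 1.764% of counts outside protein-coding genes. On the first principal component of log2 CPM, the main axis of difference between libraries (38.3% of variance), it lay at 36.8. The 5 lay at 62.1 to 126 and the remaining libraries at -11.8 or lower, so the WT livers are not free of this axis. Differences in dHep and dHSC livers are given with all libraries, and several of them also without the 5. Cyp1a1, the best known AHR target, was higher with TCDD by 2.26 ± 0.69 in dHep (adjusted p = 0.473), 8.59 ± 0.92 in dHSC (adjusted p = 8.41e-05) and 8.70 ± 0.92 in WT (adjusted p = 4.56e-05) on the log2 scale (SE, n = 3 per group).

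**Figure D1:**
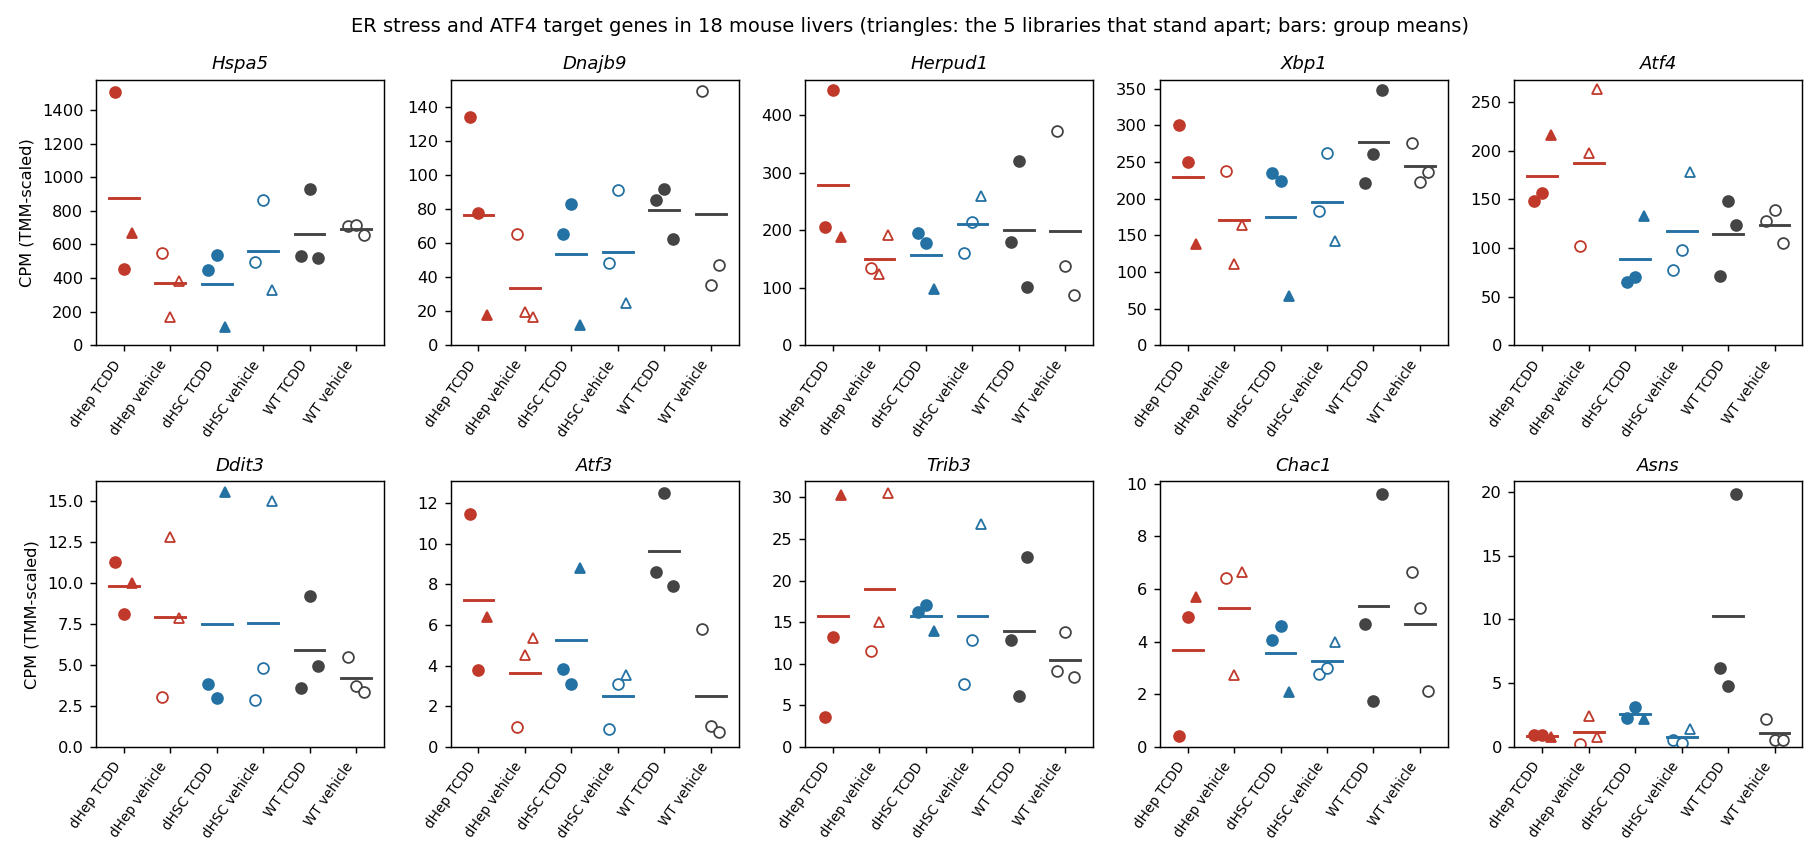
Level of each gene in every mouse liver (CPM after TMM scaling, linear axes from 0), with filled symbols for TCDD, open symbols for vehicle, triangles for the 5 libraries that stood apart and bars for group means. Asns stands high in WT TCDD, at 4.78 to 19.8 CPM, and in no other group does a library pass 3.16 CPM.

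In WT livers TCDD raised 1 of the 10 genes, Asns, and left no other member past the test. Asns encodes asparagine synthetase, which makes asparagine from aspartate and glutamine and is a standard target of ATF4. Its level was 6.23, 4.78 and 19.8 CPM in WT TCDD replicates 2, 8 and 14, against 2.18, 0.560 and 0.517 CPM in WT vehicle replicates 1, 7 and 13. All 3 TCDD livers lay above all 3 vehicle livers, and replicate 14 was the highest by far. The means were 10.3 ± 8.31 CPM in WT TCDD and 1.09 ± 0.947 CPM in WT vehicle (SD, n = 3 each), a log2 difference of 3.24 ± 0.82 (SE; 95% interval 1.505 to 4.97; edgeR quasi-likelihood test, adjusted p = 0.0279). The 1 of 10 members called stands beside 5.38% of all genes called in this comparison, and 1 called higher beside 3.43%. The count of 1 is read as a statement about Asns, not about the 10 genes as a group.

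The Asns call depended on single mice. Without WT TCDD replicate 14 the log2 difference was 2.33 (adjusted p = 0.161), without WT vehicle replicate 7 it was 2.93 (adjusted p = 0.134), and without WT vehicle replicate 13 it was 2.91 (adjusted p = 0.124). It remained called without WT TCDD replicate 2 or 8 and without WT vehicle replicate 1, and was above 0 in all 6 of these fits. It narrowly missed the threshold when only the WT groups were fitted (3.24, adjusted p = 0.0545). It also missed it when 3 sets of 6 consecutive mouse numbers entered as a term (3.08, adjusted p = 0.0510), a split whose meaning the labels do not give.

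The ER chaperone and degradation genes did not differ past the test in WT. Hspa5 encodes BiP, the main ER chaperone and the brake on the 3 sensors. It had 530, 932 and 522 CPM in WT TCDD replicates 2, 8 and 14, against 709, 718 and 658 CPM in WT vehicle replicates 1, 7 and 13. The TCDD livers lay on either side of the vehicle livers, and the log2 difference was -0.07 ± 0.57 (95% interval -1.29 to 1.14, adjusted p = 0.985). Herpud1, a membrane protein of ER-associated degradation, averaged 201 ± 111 CPM in WT TCDD and 200 ± 152 CPM in WT vehicle, a log2 difference of 0.01 (95% interval -1.09 to 1.10). Dnajb9 encodes ERdj4, a cochaperone of BiP under XBP1. It averaged 79.9 ± 15.5 CPM in WT TCDD and 77.5 ± 62.5 CPM in WT vehicle, with a log2 difference of 0.04 (95% interval -1.62 to 1.71). Xbp1, the transcription factor spliced by IRE1, averaged 277 ± 65.0 CPM in WT TCDD and 245 ± 27.5 CPM in WT vehicle, a log2 difference of 0.18 (95% interval -0.73 to 1.08). The intervals of Hspa5, Herpud1, Dnajb9 and Xbp1 all include 0 and a log2 difference of 1, so rises of that size were not excluded with these mice.

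The transcription factors were likewise not called in WT. Atf4 averaged 114 ± 39.5 CPM in WT TCDD and 124 ± 17.2 CPM in WT vehicle, a log2 difference of -0.12 (95% interval -0.97 to 0.74). Ddit3 encodes CHOP, which acts downstream of ATF4 in prolonged stress. It averaged 5.93 ± 2.93 CPM in WT TCDD and 4.18 ± 1.16 CPM in WT vehicle, a log2 difference of 0.50 (95% interval -0.93 to 1.94). Atf3, a stress-induced repressor and activator of the same bZIP family, came closest to the threshold. It had 8.61, 12.5 and 7.90 CPM in WT TCDD replicates 2, 8 and 14, against 5.79, 1.01 and 0.746 CPM in WT vehicle replicates 1, 7 and 13. All TCDD livers were above all vehicle livers, as for Asns, so 2 of the 10 genes separated in this direction, beside 13.4% of all genes tested. The log2 difference of Atf3 was 1.94 ± 0.78 (95% interval 0.28 to 3.59, adjusted p = 0.193).

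WT vehicle replicate 1 set much of the Atf3 result. That liver was the highest of its group for 7 of the 10 genes (Asns, Atf3, Chac1, Ddit3, Dnajb9, Herpud1 and Xbp1), with 373 CPM of Herpud1 and 149 CPM of Dnajb9, against at most 139 and 47.4 CPM in the other WT vehicle livers. It also held skeletal muscle transcripts: 6 muscle markers summed to 1037 CPM, against at most 3.09 CPM in every other library. Of the 6, Acta1 was at 0 in all groups. Without that liver the log2 difference of Atf3 was 3.44 ± 0.81 (adjusted p = 0.0218) and that of Asns 4.24 ± 0.95 (adjusted p = 0.0160). The part of the muscle transcripts in the levels of these genes was not tested.

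The remaining ATF4 targets were not called in WT. Trib3, a pseudokinase that restrains ATF4, had 12.9, 6.15 and 22.9 CPM in WT TCDD replicates 2, 8 and 14, against 9.17, 13.8 and 8.44 CPM in WT vehicle replicates 1, 7 and 13. Chac1, which breaks down glutathione, had 4.67, 1.77 and 9.63 CPM in WT TCDD replicates 2, 8 and 14, against 6.65, 5.27 and 2.12 CPM in WT vehicle replicates 1, 7 and 13. In both genes the groups overlapped and TCDD replicate 14 was the highest of the 6 livers. The log2 differences were 0.41 for Trib3 (95% interval -0.93 to 1.76) and 0.20 for Chac1 (95% interval -1.33 to 1.72). Rises as large as the upper ends of these intervals were not excluded. Over all 10 genes the median log2 difference in WT was 0.19, beside -0.02 for all genes tested.

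**Figure D2:**
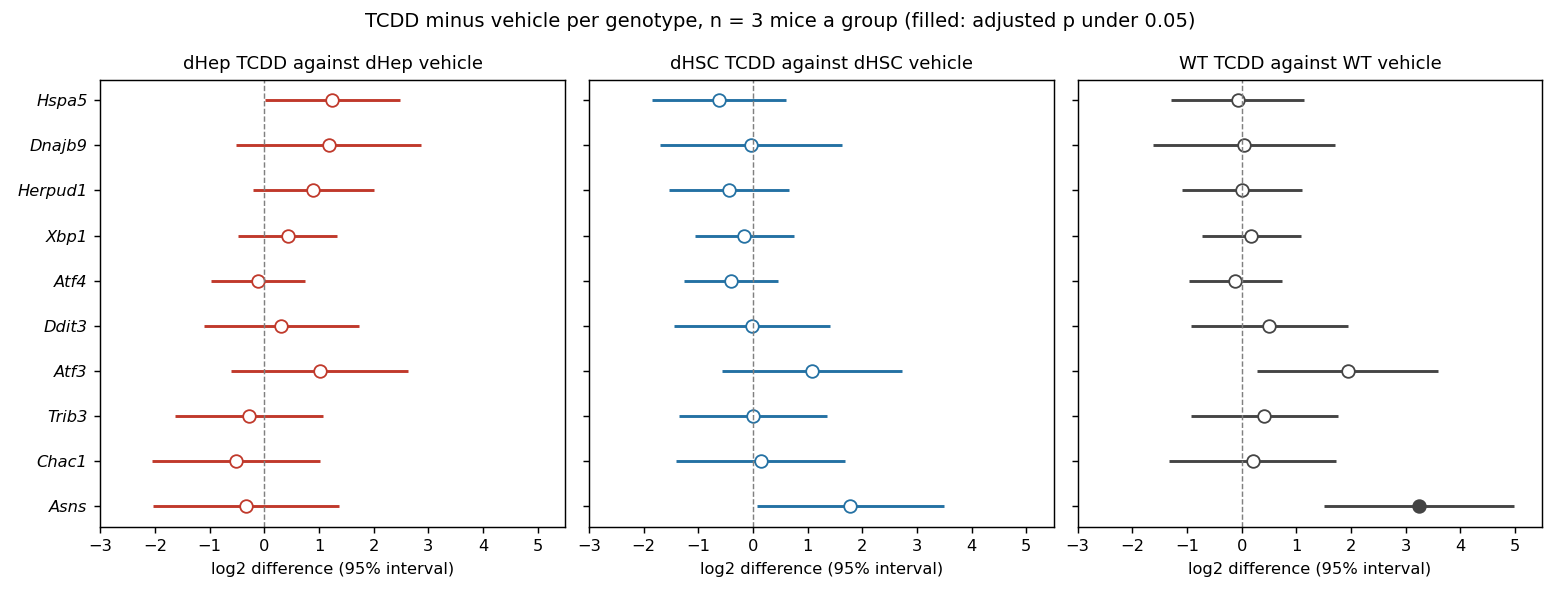
Log2 difference of TCDD minus vehicle for the 10 genes in dHep, dHSC and WT livers, with 95% intervals from the fit of all 18 libraries and filled symbols for an adjusted p under 0.05. The single filled symbol is Asns in WT, at 3.24, and most intervals cross 0.

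Where hepatocytes lacked AHR, TCDD raised none of the 10 genes past the test. Asns had 0.909, 0.942 and 0.817 CPM in dHep TCDD replicates 4, 10 and 16, against 0.225, 2.44 and 0.755 CPM in dHep vehicle replicates 3, 9 and 15. The TCDD livers lay within the range of the vehicle livers, and the log2 difference was -0.34 ± 0.80 (95% interval -2.03 to 1.36, adjusted p = 0.960). Without the 5 libraries that stood apart, which leaves replicate 3 as the lone dHep vehicle liver, it was above 0, at 2.01 ± 1.17 (adjusted p = 0.990). With edgeR 0 of 10 members were called, beside 0.0674% of all genes, and DESeq2 called 0 as well. At an unadjusted p under 0.05 there was 1 of 10, beside 6.70% of all genes, and that was Hspa5. It had 1510, 452 and 668 CPM in dHep TCDD replicates 4, 10 and 16, against 552, 171 and 385 CPM in dHep vehicle replicates 3, 9 and 15. The groups overlapped, replicate 4 was the highest of all 18 livers, and the log2 difference was 1.25 ± 0.58 (adjusted p = 0.738). It was 0.60 without dHep TCDD replicate 4 and 0.83 without the 5 libraries that stood apart.

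The level of Asns with TCDD was lower in dHep than in WT. The means were 0.889 ± 0.0649 CPM in dHep TCDD and 10.3 ± 8.31 CPM in WT TCDD (SD, n = 3 each), and every dHep TCDD liver was below every WT TCDD liver, as in 9.68% of all genes. The log2 difference was -3.52 ± 0.83 (SE; 95% interval -5.28 to -1.76, adjusted p = 0.0380). It was the 1 member of 10 called in this comparison, beside 1.94% of all genes called and 1.12% called lower. Without WT TCDD replicate 14 the difference was -2.62 (adjusted p = 0.238) and without WT TCDD replicate 2 it was -3.79 (adjusted p = 0.0588). It was -3.55 without dHep TCDD replicate 4 (adjusted p = 0.161), -3.57 without replicate 10 (adjusted p = 0.148) and -3.47 without replicate 16 (adjusted p = 0.154). With the 3 sets of mouse numbers as a term it was -3.42 (adjusted p = 0.0594), and without the 5 libraries -3.47 (adjusted p = 0.0498). In vehicle livers Asns averaged 1.14 ± 1.16 CPM in dHep vehicle and 1.09 ± 0.947 CPM in WT vehicle, a log2 difference of 0.05 (95% interval -1.63 to 1.74), or -2.24 ± 1.13 with dHep vehicle replicate 3 alone, without the 5 libraries.

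The difference of the responses themselves did not pass the threshold. The dHep response of Asns minus the WT response was -3.58 ± 1.13 on the log2 scale (95% interval -5.97 to -1.18, unadjusted p = 0.00598, adjusted p = 0.242). No member was called there by edgeR or by DESeq2, beside 0.856% of all genes by edgeR. An unadjusted p under 0.05 was found for 1 of 10, beside 8.43% of all genes. Without the 5 libraries, which leaves dHep vehicle with replicate 3 alone and so assumes that this liver varies like the other groups, the difference was -1.23 ± 1.37 (adjusted p = 0.984). It was -2.30 without dHep vehicle replicate 9. For the other 9 genes the difference of responses ran from -0.93 (Atf3) to 1.32 (Hspa5).

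In dHSC livers, where hepatocytes keep the receptor, Asns with TCDD lay between its levels in the other genotypes. It had 2.29, 3.16 and 2.22 CPM in dHSC TCDD replicates 6, 12 and 18, against 0.543, 0.295 and 1.41 CPM in dHSC vehicle replicates 5, 11 and 17. All TCDD livers were above all vehicle livers, as in 9.61% of all genes, and the log2 difference was 1.78 ± 0.81 (95% interval 0.06 to 3.49, adjusted p = 0.382). With edgeR 0 of 10 members were called in dHSC, beside 2.55% of all genes, and DESeq2 called 0. Asns was the 1 member with an unadjusted p under 0.05, beside 12.2% of all genes. Without the 5 libraries the Asns difference was 2.65 ± 0.87 (adjusted p = 0.242). The dHSC response minus the WT response was -1.46 ± 1.11 (95% interval -3.82 to 0.90, adjusted p = 1), and edgeR called 0% of all genes in that comparison. Among TCDD livers, Asns averaged 2.56 ± 0.526 CPM in dHSC and 10.3 ± 8.31 CPM in WT, a log2 difference of -2.003 ± 0.77 (unadjusted p = 0.0195, adjusted p = 1; 0% of all genes called). The dHSC TCDD livers all lay below the WT TCDD livers, as in 4.38% of all genes. Its order of group means ran WT TCDD, dHSC TCDD, dHep vehicle, WT vehicle, dHep TCDD and dHSC vehicle. Of the 5 pairs of neighbours in that order, WT TCDD and dHSC TCDD were the 1 pair that did not overlap. The share of all genes with such a gap was not counted.

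The other 9 genes differed less between group means than Asns did. Their highest and lowest group means differed by 1.62 times (Xbp1) to 3.86 times (Atf3), against 13.8 times for Asns. In 8 of them all neighbouring groups overlapped. The share of all genes with such overlap was not counted, so that count is a description and not a result about these genes. The exception was Atf4, whose 3 dHep TCDD livers, at 148.3, 156 and 216 CPM, were above the 3 WT vehicle livers, next in the order at 127, 139 and 105 CPM. They were also above the WT TCDD livers, at 70.8, 148.1 and 124 CPM, as 6.58% of all genes were, where the log2 difference was 0.60 ± 0.40 (adjusted p = 0.824), and 0.41 ± 0.28 without the 5 libraries. In vehicle, edgeR called 0 of 10 members and 0% of all genes for dHep against WT, and likewise for dHSC against WT. Neither comparison had a member with an unadjusted p under 0.05, beside 6.91% of all genes for dHep and 1.48% for dHSC. DESeq2 called 0 members in both. Hspa5 was the 1 gene whose dHep vehicle livers, at 171 to 552 CPM, all lay below the WT vehicle livers, at 658 to 718 CPM (log2 difference -0.91 ± 0.58, adjusted p = 0.623; 3.26% of all genes separated that way). Of these dHep vehicle livers 2 stood apart, and with replicate 3 alone the difference was -0.33 ± 0.58.

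Some differences between mice ran across groups, along with the 5 libraries that stood apart. Dnajb9 was at 11.8 to 24.6 CPM in these 5 and at 35.7 to 149 CPM in the other 13. Xbp1 was at 66.6 to 164 CPM in the 5 and at 183 to 348 CPM in the rest, so neither gene overlapped. Hspa5 in 4 of the 5 lay below all 13 others. Atf4 went the other way, with 4 of the 5 above all the rest, as did Ddit3 and Trib3 with 3 of the 5 each. Chac1, Asns, Atf3 and Herpud1 had none of the 5 outside the range of the rest. The share of all genes that separate these libraries was not counted, so these counts are not read as particular to the 10 genes. These libraries were singled out by counts falling outside protein-coding genes, and the part of RNA quality in these levels was not tested. In dHSC TCDD replicate 18, the lowest of its group for 7 of the 10 genes, mitochondrially encoded genes held 28.4% of counts.

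**Figure D3:**
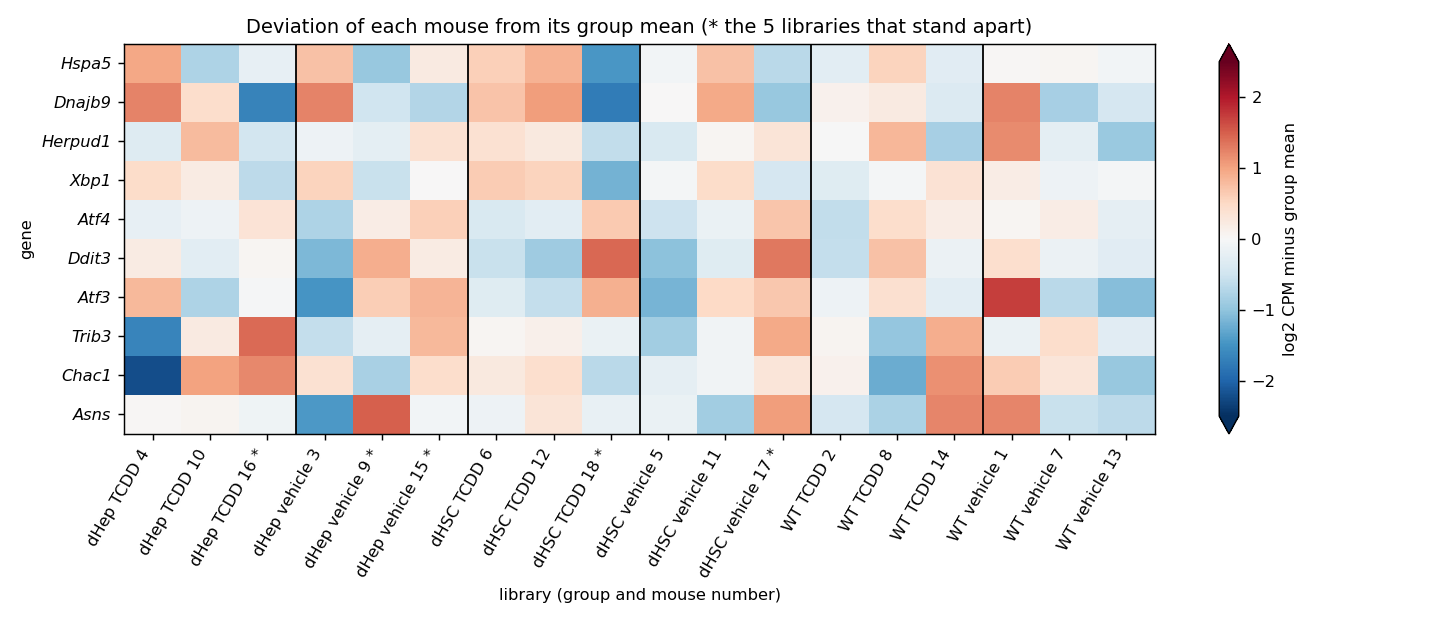
Deviation of each liver from its group mean (log2 CPM, colour scale from -2.5 to 2.5) for the 10 genes in 18 libraries, with asterisks on the 5 libraries that stood apart. Dnajb9 and Xbp1 are low and Ddit3 is high in dHSC TCDD replicate 18, and among WT TCDD livers replicate 14 is high for Asns, Chac1 and Trib3 and low for Hspa5 and Herpud1.

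Within WT TCDD no liver was the highest for all 10 genes. Replicate 8 was the highest of the 3 for Hspa5, Dnajb9, Herpud1, Atf4, Ddit3 and Atf3, and the lowest for Asns, Chac1 and Trib3. Replicate 14 was the highest for Asns, Chac1, Trib3 and Xbp1 and the lowest for Hspa5, Dnajb9, Herpud1 and Atf3, with Hspa5 at 522 CPM beside 530 CPM in replicate 2. These are 3 livers, and the order is a description.

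Beyond the 10 genes, 9 lists with 126 genes of related pathways were examined, and 122 of the 126 were tested. Slc6a9, Slc7a5 and Map1lc3b had 0 counts in all libraries and Hspa1a 57 in total, and all 4 overlap other genes in the annotation. In WT, 6 list genes were called higher and 1 lower. These 7 make up 5.74% of the 122, near the 5.38% called over all genes. The members of the ER lists were not among them. At such a share a list of 9 to 20 genes can easily hold 0 called, so where the calls fell is only described. The 20 ER chaperones and folding enzymes had 0 called and a median log2 difference of -0.13, the 16 genes of ER-associated degradation and export had 0 called and a median of 0.05, and the 10 sensors and kinases had 0 called and a median of -0.15. The 12 cytosolic aminoacyl-tRNA synthetases (median 0.33), 10 heat shock genes (0.15) and 9 mitochondrial chaperones and proteases (0.00) also had 0 called. The median over all genes was -0.02.

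The 7 called genes were members of the ATF4 and CHOP lists and of the immediate early list. Of 15 tested ATF4 targets in amino acid metabolism and transport, with a median of 0.96, 1 was higher and 1 lower. The summed level of that list overlapped, at 1288, 1050 and 1482.5 CPM in WT TCDD replicates 2, 8 and 14. In WT vehicle replicates 1, 7 and 13 it was 1243, 2671 and 1870.5 CPM. Some genes of the list were scarce in WT vehicle, such as Psat1 (0.897 CPM), Phgdh (0.840 CPM) and Slc7a11 (0.306 CPM). They weigh little in the sum beside an abundant gene such as Gpt2 (442 CPM in WT vehicle), so the sum says little about them. Mthfd2, the mitochondrial folate enzyme, averaged 5.17 ± 2.12 CPM in WT TCDD and 1.02 ± 0.359 CPM in WT vehicle, a log2 difference of 2.33 ± 0.49 (adjusted p = 0.00894). Gpt2, an alanine aminotransferase, averaged 232 ± 37.1 CPM in WT TCDD and 442 ± 38.7 CPM in WT vehicle, a difference of -0.93 ± 0.25 (adjusted p = 0.0420). Of 17 other ATF4 and CHOP response genes, with a median of 0.10, 3 were higher and 0 lower. They were Fgf21, a hormone the liver releases in fasting, Tnfrsf10b, a death receptor, and Ddit4, an inhibitor of mTORC1. Fgf21 averaged 25.8 ± 19.6 CPM in WT TCDD and 0.550 ± 0.373 CPM in WT vehicle, a difference of 5.53 ± 0.85 (adjusted p = 0.000887). Tnfrsf10b differed by 2.02 ± 0.47 (adjusted p = 0.0165) and Ddit4 by 1.17 ± 0.31 (adjusted p = 0.0369). Of 13 immediate early genes, with a median of 0.64, Ier3 (2.83 ± 0.70, adjusted p = 0.0255) and Myc (1.56 ± 0.41, adjusted p = 0.0344) were higher. In the 6 fits that each left out 1 WT liver, the call of Fgf21 was lost in 0, Mthfd2 in 1, Tnfrsf10b in 2, Ier3 in 3, Ddit4 and Myc in 5 each and Gpt2 in 6.

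**Figure D4:**
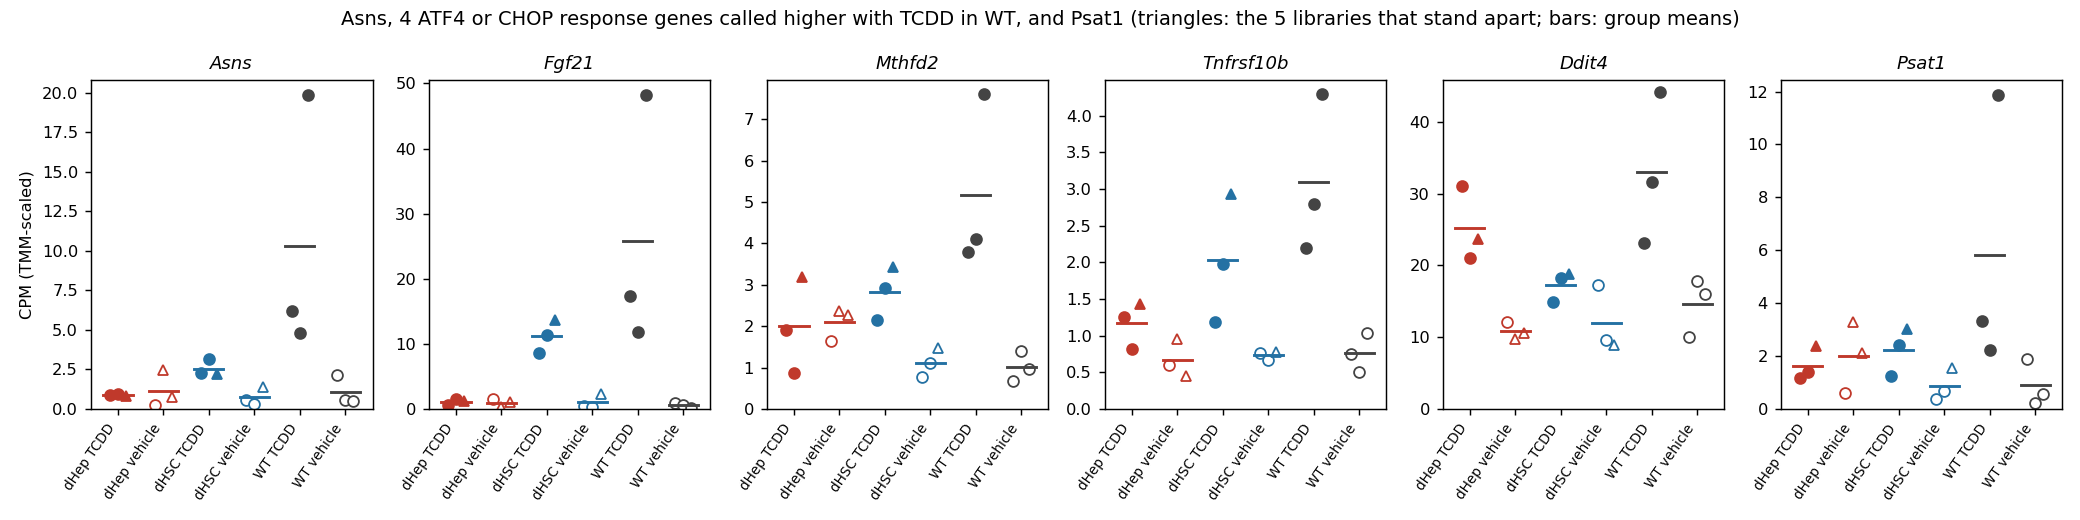
Level in every liver (CPM, linear axes from 0) of Asns, of 4 ATF4 or CHOP response genes called higher with TCDD in WT, and of Psat1, with triangles for the 5 libraries that stood apart and bars for group means. WT TCDD replicate 14 is the highest liver for all 6 genes, with 48.2 CPM of Fgf21 and 7.61 CPM of Mthfd2.

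In dHep livers 0 of the 122 tested list genes were called by edgeR, beside 0.0674% of all genes. At an unadjusted p under 0.05 there were 16 of the 122, beside 6.70% of all genes. DESeq2 called 4, beside 0.602% of all genes it tested. Ddit4 averaged 25.2 ± 5.23 CPM in dHep TCDD and 10.8 ± 1.16 CPM in dHep vehicle (adjusted p = 0.343), with a difference of responses from WT of 0.05 (95% interval -0.88 to 0.97). Fgf21 averaged 1.15 ± 0.465 CPM in dHep TCDD and 0.938 ± 0.591 CPM in dHep vehicle, a difference of 0.25 ± 0.75. The dHep response of Fgf21 minus the WT response was -5.28 ± 1.09 (adjusted p = 0.0309). That call was lost in 9 of the 12 fits that left out 1 liver, with an adjusted p of up to 0.0986, and without the 5 libraries (-5.96, adjusted p = 0.0635). Among TCDD livers Fgf21 was lower in dHep than in WT, with a log2 difference of -4.50 ± 0.80 (adjusted p = 0.00523), and that call held in all 6 such fits. Without the 5 libraries that difference was -4.56. The dHep response of Mthfd2 minus the WT response was -2.40 ± 0.67 (adjusted p = 0.152).

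In dHSC livers 1 list gene was higher and 2 were lower with TCDD, 2.46% of the 122 beside 2.55% of all genes. Fgf21 averaged 11.2 ± 2.57 CPM in dHSC TCDD and 1.05 ± 1.10 CPM in dHSC vehicle, a difference of 3.43 ± 0.77 (adjusted p = 0.0236), and 4.56 without the 5 libraries (adjusted p = 0.0226). Gpt2 was lower, with a difference of -1.13 ± 0.25 (adjusted p = 0.0235), at 256 ± 36.0 CPM in dHSC TCDD and 561 ± 94.0 CPM in dHSC vehicle, and -1.20 without the 5 libraries (adjusted p = 0.0293). Hspb1, a small heat shock protein, was lower, with a difference of -1.93 ± 0.47 (adjusted p = 0.0368), and that call was lost without the 5 libraries (-1.66, adjusted p = 0.333). Without 1 liver at a time, Fgf21 lost its call in 3 of 6 fits, Gpt2 in 4 and Hspb1 in 4. Markers of other cells were called higher in the same comparison. They were 4 of 7 neutrophil markers, summing to 14.2 to 160 CPM in dHSC TCDD and 4.12 to 11.1 CPM in dHSC vehicle with none at 0, 3 of 6 tested B and plasma cell markers (160 to 208 CPM in dHSC TCDD, 192 to 549 CPM in dHSC vehicle, with Ms4a1 and Mzb1 at 0) and 2 of 8 macrophage markers (501 to 704 CPM in dHSC TCDD, 488 to 696 CPM in dHSC vehicle, with none at 0). The 6 tested B and plasma cell markers had a median log2 difference of 2.39. The sum of that list went the other way at the median, at 204 CPM in dHSC TCDD and 406 CPM in dHSC vehicle. A sum follows its most abundant markers, and Derl3 of that list is also counted under ER-associated degradation, so the sum is no measure of these cells. The part of these cell types in the differences was not tested.

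The chaperone lists had medians on opposite sides of 0 in the dHep and dHSC livers. The 20 ER chaperones and folding enzymes had a median log2 difference of 0.58 in dHep and -0.59 in dHSC, with 0 called in either. Their summed level was 5727, 5037 and 4912 CPM in dHep TCDD replicates 4, 10 and 16, against 4008, 2670 and 4404 CPM in dHep vehicle replicates 3, 9 and 15. It was 3344, 3400 and 1870 CPM in dHSC TCDD replicates 6, 12 and 18, against 4073, 5007 and 3616 CPM in dHSC vehicle replicates 5, 11 and 17. The sums were higher in every TCDD liver than in every vehicle liver in dHep, and lower in every one in dHSC. Single genes separated in these directions in 4.56% and 7.7% of all genes. Those shares are no baseline for sums of 20 genes, for which none was computed. In WT the sums overlapped, at 3817, 5797 and 3666 CPM in WT TCDD replicates 2, 8 and 14, against 4228, 5380 and 4752 CPM in WT vehicle replicates 1, 7 and 13. The 10 tested heat shock genes, cytosolic chaperones and their regulators, had medians of 1.13 in dHep with 0 called and -0.70 in dHSC with 1 called, Hspb1. Without the 5 libraries the medians were 0.42 in dHep and -0.47 in dHSC for the ER list and 1.49 in dHep and -0.51 in dHSC for the heat shock list, with 0 called. The difference between the dHep and dHSC responses was not tested.

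**Figure D5:**
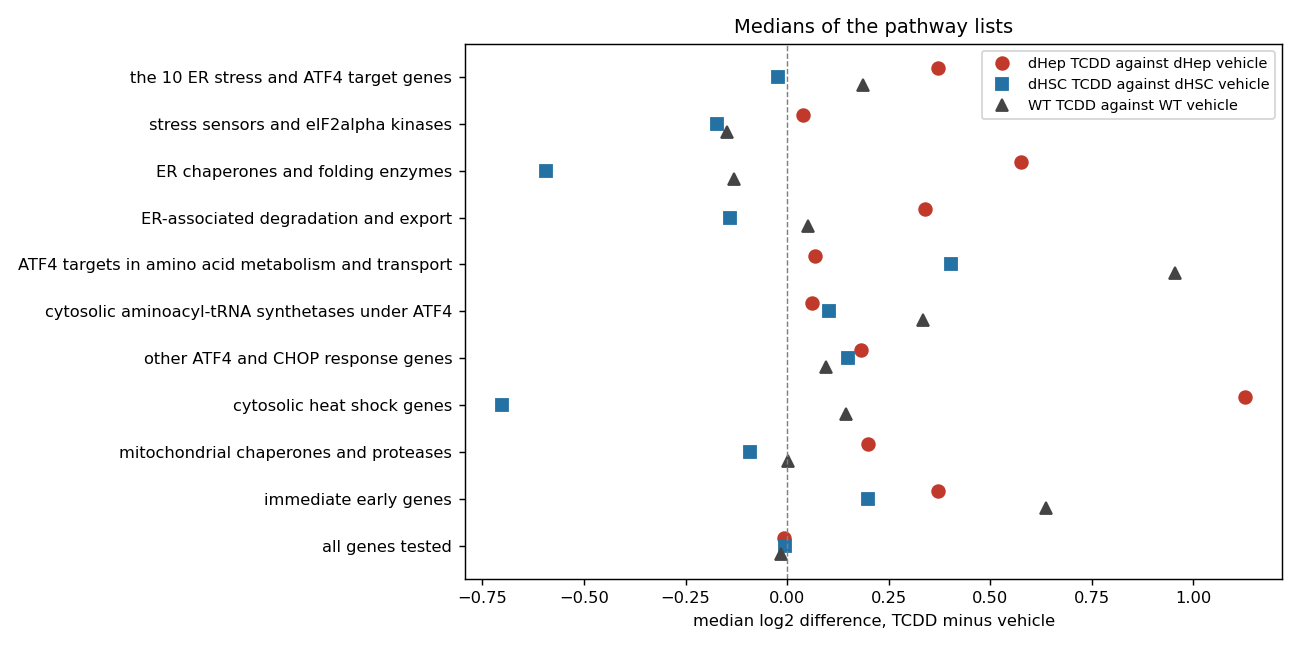
Median log2 difference of TCDD minus vehicle for the 10 genes, 9 pathway lists and all genes tested, with circles for dHep, squares for dHSC and triangles for WT. In WT the ATF4 targets in amino acid metabolism and transport have the highest median, 0.96, and the ER chaperones sit at -0.13.

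The gene whose level went most closely with that of Asns from mouse to mouse was Psat1, an enzyme of serine synthesis and a member of the ATF4 amino acid list. After removal of the 6 group means, Pearson's r over 18 libraries was 0.84 (Spearman's rho 0.74), and r was 0.86 over the 13 libraries that did not stand apart. Next among 11738 genes searched were Trim15 (r = 0.83) and Ltbp1 (r = 0.81). The livers share library preparation and depth with the genes compared, and these values are given as a description. Psat1 averaged 5.81 ± 5.27 CPM in WT TCDD and 0.897 ± 0.879 CPM in WT vehicle, with all TCDD livers above all vehicle livers and a log2 difference of 2.69 ± 0.84 that missed the threshold (adjusted p = 0.0758).

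Markers of other cells moved with TCDD in the same WT livers in which Asns rose. Of 7 neutrophil markers 7 were called higher, and they summed to 81.5 to 101 CPM in WT TCDD against 2.75 to 5.68 CPM in WT vehicle, with none at 0. Of 6 cholangiocyte markers 3 were higher (222 to 288 CPM in WT TCDD, 60.9 to 72.6 CPM in WT vehicle). Of 8 macrophage markers 3 were higher (519 to 864 CPM in WT TCDD, 207 to 606 CPM in WT vehicle), and of 8 stellate cell and myofibroblast markers 2 were (296 to 487 CPM in WT TCDD, 108 to 429 CPM in WT vehicle, with Lrat at 0). Of 8 B and plasma cell markers 6 were tested and 3 were higher (167 to 232 CPM in WT TCDD, 194 to 706 CPM in WT vehicle, with Ms4a1 and Mzb1 at 0). The median log2 difference of the 6 tested was 2.14. The sum of that list went the other way at the median, at 207 CPM in WT TCDD and 543 CPM in WT vehicle, and follows its most abundant markers. Of 6 tested endothelial markers 1 was higher and 1 lower, and of 6 tested T and NK cell markers 0 were called. Of 8 hepatocyte markers 0 were called, and they summed to 46819 to 88213 CPM in WT TCDD and 88930 to 151780 CPM in WT vehicle. Their part in the Asns result was not tested.

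The positions, on GRCm38 with the GENCODE M21 annotation, bear on 3 of the genes. Ddit3 (ENSMUSG00000025408, chromosome 10, 127290774 to 127296288) has 10.86% of its exon bases within exons of other genes, the overlapping ones being Mars, Gm4189 and a second identifier named Ddit3 that had 0 counts in 18 libraries. Herpud1 (ENSMUSG00000031770, chromosome 8, 94386438 to 94395377) has 12.9% within the span of Gm15890 but 0% within its exons, and Dnajb9 has 0.5492% within Mir5627. Exon reads there may have been left uncounted or counted to the other gene, so the level of Ddit3 is uncertain to that extent, and that of Herpud1 if whole gene spans were counted. Asns (ENSMUSG00000029752, chromosome 6, 7675169 to 7693254, minus strand), Hspa5 (ENSMUSG00000026864, chromosome 2, 34771970 to 34777547) and Atf3 (ENSMUSG00000026628, chromosome 1, 191170296 to 191218039, minus strand) have no exon base in another gene's span.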

How the data were processed

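Liver mRNA of 18 mice was sequenced after poly-T selection from 10 mg of tissue with an RNA integrity number above 6.8, per the labels' protocols. The deposited tables hold the authors' raw read counts per gene. The submitters' processing notes name HISAT2 2.1.0 and HTSeq 0.11.3, along with FastQC 0.11.9 and DESeq2 1.22.2, on GRCm38. The counting settings are not given in the sources used here. Of 55536 identifiers, 55450 are named in GENCODE M21.

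The analysis used edgeR 4.0.16 under R 4.3.3: filterByExpr by group kept 14835 genes and removed 40701, libraries were scaled by TMM, and all 18 libraries were fitted in 1 quasi-likelihood model with a mean per group (biological coefficient of variation 0.448). In 9 comparisons, p-values were adjusted over the 14835 genes by Benjamini-Hochberg. Genes below an adjusted p of 0.05 were called. CPM are TMM-scaled, and differences are log2 with their SE. Libraries are separate mice per the labels, and none was a duplicate (mean chi-square per gene between replicates 20.4 to 475).

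The 10 genes, the 9 pathway lists, the marker lists and the tests were chosen with earlier results of these data known. Named besides the 10 were list genes called in a comparison, at most 3 per list and response, Cyp1a1, Ahr and the 3 genes most like a called member. Alternatives were RLE scaling, no filter, at least 1 CPM in 3 libraries, only the groups compared, DESeq2 1.42.0 and leaving out each mouse. Added after seeing the data were a fit without the 5 libraries with over 2% of counts outside protein-coding genes, and 3 sets of 6 mouse numbers as a term. Promoter sequences are from RefSeq, GRCm38.p6.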

Additional observations from a re-analysis of the deposited data

Results flagged for a closer look

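The dHep response of Fgf21 to TCDD minus its WT response was -5.28 on the log2 scale (adjusted p = 0.0309), a difference between the genotypes' responses that passed its own test. It was below 0 as well without the 5 libraries that stood apart (-5.96), where it no longer passed (adjusted p = 0.0635). By liver, Fgf21 had 0.649, 1.57 and 1.225 CPM in dHep TCDD replicates 4, 10 and 16 and 1.46, 0.297 and 1.06 CPM in dHep vehicle replicates 3, 9 and 15. It had 17.4, 11.8 and 48.2 CPM in WT TCDD replicates 2, 8 and 14 and 0.917, 0.560 and 0.172 CPM in WT vehicle replicates 1, 7 and 13.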

How the results depend on the processing

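The count of the 10 genes called in WT TCDD against WT vehicle was 1 in the fit reported, 0 when only the groups compared were fitted, 0 with 3 sets of 6 mouse numbers as a term, and 0 to 2 when 1 liver was left out. In dHep TCDD against WT TCDD it was 1 in the fit reported, 0 with the 3 sets as a term, and 0 to 1 when 1 liver was left out. In the other 7 comparisons it was 0 under every alternative run. Over 1289 member differences under other settings, 11 called ones were no longer called, 1 became called (Atf3 in WT without vehicle replicate 1) and 0 called ones changed sign; of 1262 called in neither fit, 123 had the other sign. Counts over all genes, given as WT TCDD against vehicle, then dHep, then dHSC, then the dHep response minus the WT response, were 798, 10, 379 and 127 in the fit reported. They were 1336, 84, 716 and 288 with DESeq2 and 1584, 0, 214 and 19 without the 5 libraries. With only the groups compared they were 0 in dHep and 75 in dHSC, and without the filter 19 in dHep. Leaving out 1 liver gave 445 to 921 in WT, 0 to 11 in dHep, 169 to 297 in dHSC, 51 to 130 for the dHep response minus the WT response and 159 to 215 for dHep TCDD against WT TCDD. For dHep TCDD against WT TCDD the count was 288, and 570 with DESeq2. DESeq2 called 3, 5, 2 and 21 genes where edgeR called 0, in the dHSC response minus the WT response, dHep vehicle against WT vehicle, dHSC vehicle against WT vehicle and dHSC TCDD against WT TCDD. Of the list genes, 7 were called in WT, 3 with only the groups compared, 13 with DESeq2 and 14 without the 5 libraries. The labels name no pairs of mice, since each mouse number occurs once and no 2 groups share a number. The 3 sets of 6 consecutive numbers, each holding every group once, were the nearest to a block, and both Asns calls missed the threshold with them (adjusted p = 0.0510 and 0.0594). Depth limits Asns most, with 36 to 126 counts in each group but WT TCDD, and 3 mice a group limit every comparison.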
